A study of Bos taurus with 42 samples.

Results

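The mitochondrial genome encodes 7 subunits of complex I, and their genes are *ND1*, *ND2*, *ND3*, *ND4*, *ND4L*, *ND5* and *ND6*. Members were the rows of the count table whose Ensembl identifiers the study's supplementary tables pair with these symbols, and all 7 were found among 22664 genes. The identifiers were ENSBTAG00000043558 for *ND1*, ENSBTAG00000043571 for *ND2*, ENSBTAG00000043568 for *ND3*, ENSBTAG00000043577 for *ND4*, ENSBTAG00000043559 for *ND4L*, ENSBTAG00000043563 for *ND5* and ENSBTAG00000043546 for *ND6*. All 7 passed the filter on low counts in every comparison.

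Complex I, the NADH:ubiquinone oxidoreductase, passes electrons from NADH to ubiquinone and moves protons across the inner mitochondrial membrane. Its mitochondrially encoded subunits form the core of the arm that lies in that membrane. *ND1* and *ND3* contribute to the region where ubiquinone is reduced, *ND2*, *ND4* and *ND5* are antiporter-like subunits that move protons, and *ND4L* and *ND6* lie between these regions. Both strands of the mitochondrial genome are transcribed into long precursors that are cut into single messengers. *ND6* is the only protein gene read from the light strand, and *ND4L* and *ND4* share a messenger in which their reading frames overlap.

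For each of 14 bovine fetuses at day 50 of gestation, RNA-Seq libraries were made from 3 tissues (cerebrum, liver and hind limb muscle), with 1 library for each tissue and fetus. The dams were Angus-cross heifers bred to a common sire. In the control group (CON, n = 7, with 6 male fetuses and 1 female) the dams were fed 100% of the requirement from breeding on, and in the restricted group (RES, n = 7, with 5 males and 2 females) the diet was cut to 60% of the control delivery. The question was whether early maternal restriction goes with a change in the fetal transcriptome. The 3 tissues of a fetus share its number, and libraries are named here by diet and fetus. Each library holds the whole tissue, so that fewer cells of a type and less RNA per cell cannot be told apart.

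Cerebrum libraries held 4145093 to 7576159 counts (median 5322765.5), liver libraries 6658218 to 12741299 (median 8130072.5) and muscle libraries 5384018 to 7592149 (median 6644024.5). Of these, 29882 to 259638 fell on the 7 genes in a cerebrum library, 51239 to 1732201 in a liver library and 30726 to 70483 in a muscle library. Counting error was therefore small for every member but *ND6*, which had as few as 19 counts in a muscle library. The libraries were strand-specific, but the strand setting of the deposited counts is not stated in the sources used here. Reads antisense to *ND6*, and reads on the stretch that *ND4L* and *ND4* share, could thus be counted or dropped in a way that cannot be told apart here.

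Each labelled tissue carried its own markers. Summed over 7 hepatocyte markers, the liver libraries held at least 94576 CPM (counts relative to the size of the library, scaled over all 42 libraries by the trimmed mean of M values, TMM) and the muscle libraries at most 118.1 CPM. Summed over 6 neuronal markers, the cerebrum libraries held at least 1964 CPM and the liver libraries at most 36.5 CPM. The muscle libraries had a median of 29.0 CPM for these neuronal markers, with 1472 CPM in CON fetus 73 and 340 CPM in RES fetus 1. Summed over 7 skeletal muscle markers, the muscle libraries held at least 1338 CPM.

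Some libraries stood apart. The cerebrum library of RES fetus 1 had the highest sum of the tissue for hepatocyte markers, 5918 CPM against a median of 154.6, of which the transthyretin gene *TTR*, also made by the choroid plexus, gave 5627 CPM. It was also highest for 5 red cell markers at 265.4 CPM (180.5 CPM from *HBA*), for 7 skeletal muscle markers at 208.7 CPM (110.5 CPM from *ACTC1*) and for 3 macrophage markers at 31.8 CPM (15.3 CPM from *C1QA*), with no marker of these 4 lists at 0. Its sum for the neuronal markers, 1964 CPM, was the lowest of the cerebrum. The cerebrum library of RES fetus 25 came next for hepatocyte markers, at 1160 CPM (1101 CPM from *TTR*), and for red cell markers, at 87.5 CPM (54.3 CPM from *HBA*). The cerebrum library of CON fetus 23 had the highest neuronal sum, 8709 CPM, of which *STMN2* gave 5894 CPM. In the liver, the library of RES fetus 1 had the most counts, 12741299, and the fewest genes with a count, 14942. Next came RES fetus 6 with 15796 genes, RES fetus 33 with 15994 and CON fetus 2 with 16020, and these 4 libraries also had the highest shares of ND counts in the liver. *SERPINA1*, 1 of the 7 hepatocyte markers, was highest in 3 of these 4, at 217118 CPM in RES fetus 1, 139187 CPM in RES fetus 6 and 119645 CPM in RES fetus 33. It stood at 53205 CPM in CON fetus 2. Summed over all 7 hepatocyte markers, the liver libraries ran from 94576 to 302132 CPM (median 162143). The other hepatocyte markers are not given by liver library here, so that *SERPINA1* does not stand for the list. In muscle, the library of CON fetus 73 had the 1472 CPM of neuronal markers given above, of which *STMN2* gave 896 CPM and with no marker of the list at 0. The part of these differences in the results on the ND genes was not tested, and results that rest on RES fetus 1, CON fetus 2, CON fetus 23 or CON fetus 73 are given with and without them.

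The 7 genes together took a small part of most libraries, with a wider range in the liver than elsewhere. The median share of all counts was 1.09% for cerebrum libraries (0.480% to 3.43%), 1.90% for liver libraries (0.682% to 13.6%) and 0.666% for muscle libraries (0.485% to 0.987%). In the liver, the highest shares were 13.6% in RES fetus 1, 7.02% in CON fetus 2, 5.98% in RES fetus 6 and 5.62% in RES fetus 33, and the other 10 liver libraries were at or below 3.05%. In the cerebrum, RES fetus 1 at 3.43% was followed by CON fetus 2 at 1.57%. In muscle, RES fetus 1 was again the highest, at 0.987%.

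**Figure D1:**
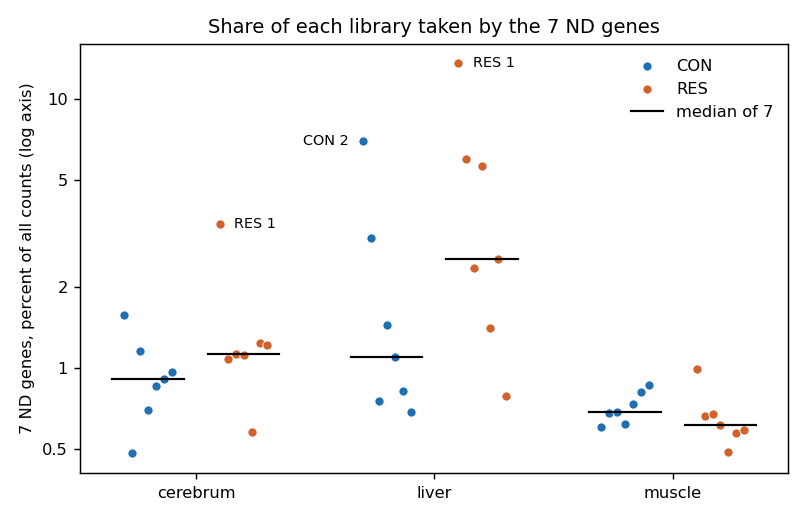
Percent of all counts in a library that fell on the 7 ND genes (log axis), for each of 42 libraries by tissue, with CON in blue, RES in orange and a bar at the median of 7. The liver libraries spread from 0.682% to 13.6%, the muscle libraries from 0.485% to 0.987%, and RES fetus 1 was the highest library of its diet in each tissue.

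These libraries were high for the mitochondrial genome as a whole. The 12 mitochondrial protein genes with a symbol (the 7 ND genes, *COX1*, *COX2*, *COX3*, *CYTB* and *ATP6*) took from 4.04% to 67.7% of the liver counts, with 67.7% in RES fetus 1 and 44.9% in CON fetus 2. Within these 12 genes, the ND genes made up a median of 18.5% in liver libraries (14.6% to 20.1%), below the 25.3% of the cerebrum and the 24.2% (20.6% to 26.2%) of muscle. The lowest share of the ND genes among them was 11.2%, in the cerebrum of CON fetus 23, and the other cerebrum libraries lay between 21.1% and 28.2%. Outside the 12 genes, the liver libraries held between 4110670 and 7841626 counts, with the fewest in RES fetus 1.

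Levels between genes were compared as CPM per kilobase, with gene lengths from RefSeq's table of the ARS-UCD2.0 assembly. On this scale *ND3*, the shortest member but for *ND4L*, was first and *ND6* last in every tissue by the median. In the cerebrum the median levels were 4131 for *ND3*, 3199 for *ND1*, 1355 for *ND2*, 975 for *ND4*, 304 for *ND4L*, 246 for *ND5* and 25.4 for *ND6*. Here *ND3* and *ND1*, *ND2* and *ND4*, and *ND4L* and *ND5* did not differ beyond the spread of their ratio over the libraries. In the liver the order was *ND3* at 14929, *ND1* at 8655, *ND4* at 4955, *ND2* at 3258, *ND5* at 1767, *ND4L* at 1592 and *ND6* at 82.9. In muscle the order was the same as in the liver, from 2609 for *ND3*, 1558 for *ND1*, 1008 for *ND4* and 698 for *ND2* to 294 for *ND5*, 261 for *ND4L* and 12.4 for *ND6*. In these tissues only *ND5* and *ND4L* were within the spread of their ratio, and *ND3*, *ND1*, *ND4* and *ND2* held their ranks in 14 of 14 libraries.

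**Figure D2:**
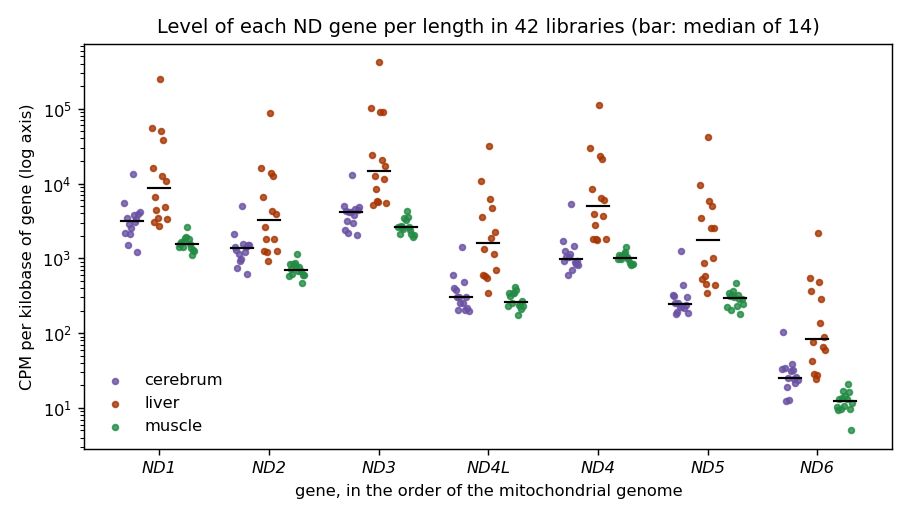
CPM per kilobase (log axis) of each ND gene in the cerebrum, liver and muscle, with a point for each of 14 libraries and a bar at their median, in the order of the genes on the mitochondrial genome. *ND6* was the lowest gene in every library, and the liver libraries ran from 5216 to 416496 CPM per kilobase for *ND3*.

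The make-up of the ND counts differed between tissues. In cerebrum libraries *ND1* made up 38.0% ± 6.6 (SD, n = 14) of the counts of the 7 genes, against 31.1% ± 2.1 in liver libraries and 29.1% ± 1.0 in muscle libraries. *ND2* made up 17.3% ± 2.5, 12.0% ± 1.2 and 14.4% ± 1.2 in the same order. *ND4* and *ND5* had the opposite arrangement. For *ND4* the shares were 19.6% ± 5.1 (cerebrum), 24.99% ± 2.0 (liver) and 26.9% ± 1.5 (muscle), and for *ND5* they were 6.57% ± 1.9, 9.52% ± 2.2 and 10.1% ± 1.4. *ND3* made up 17.0% ± 3.3, 20.5% ± 2.3 and 17.8% ± 2.1. The genes nearest the start of the heavy strand's protein genes, *ND1* and *ND2*, had their highest shares in the cerebrum. *ND4* and *ND5*, which lie farther along, had their lowest shares there. The shares of a library add up to a fixed total, so that higher shares of some genes force lower shares of others. The part of position on the genome was not tested.

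These shares were compared within fetuses by an exact permutation test (two-sided sign flips over 14 fetuses, adjusted over 21 tests). The *ND1* share was lower in the liver than in the cerebrum in 12 of 14 fetuses (difference -6.89 percentage points, adjusted p = 0.0033) and lower in muscle in 12 of 14 (difference -8.88, adjusted p = 0.0013). The *ND2* share was lower in the liver than in the cerebrum in 14 of 14 fetuses (difference -5.32, adjusted p = 0.00064) and lower in the liver than in muscle in 14 of 14 (difference -2.34, adjusted p = 0.00064). The *ND4* share was higher in muscle than in the cerebrum in 14 of 14 fetuses (7.29 points, adjusted p = 0.00064) and higher in the liver in 11 of 14 (5.40 points, adjusted p = 0.0035). The *ND5* share was higher than in the cerebrum in 13 of 14 fetuses both in the liver (2.95 points, adjusted p = 0.00085) and in muscle (3.52 points, adjusted p = 0.0013). The *ND3* share was higher in the liver than in muscle in 14 of 14 fetuses (2.71 points, adjusted p = 0.00064), whereas muscle and cerebrum gave 0.84 points with an adjusted p of 0.44. *ND5* between liver and muscle (-0.57 points, adjusted p = 0.31) and *ND4L* between liver and muscle (0.03 points, adjusted p = 0.76) did not pass.

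**Figure D3:**
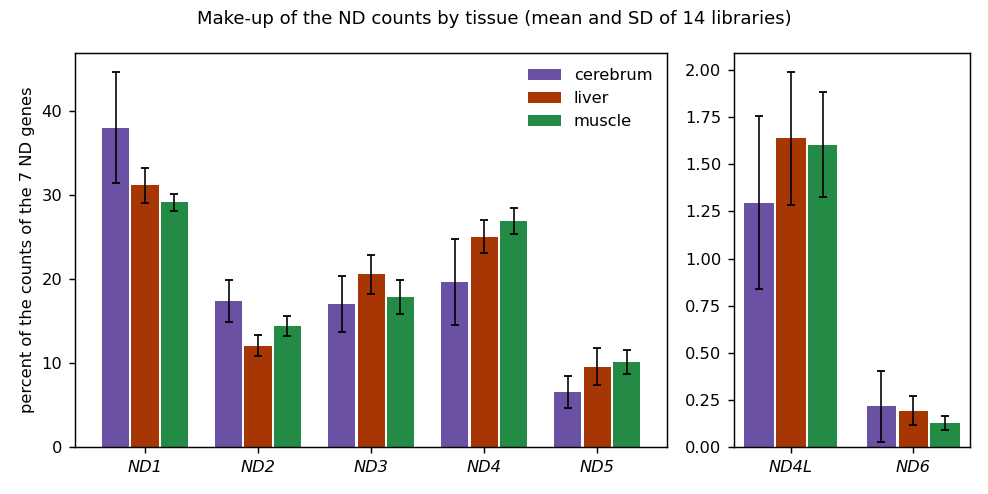
Mean share of each gene in the counts of the 7 ND genes, in percent, by tissue, with bars of 1 SD over 14 libraries and a separate scale for *ND4L* and *ND6*. *ND1* stood at 38.0% for the cerebrum and 29.1% for muscle, and *ND4* at 19.6% and 26.9%.

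The ratio of *ND1* to *ND5* counts varied more over the cerebrum libraries than over those of the other tissues. It ran from 2.63 to 11.8 over the cerebrum libraries (median 6.35), against 2.20 to 4.55 over the liver libraries (median 3.55) and 2.39 to 4.10 over the muscle libraries (median 2.72). Cerebrum libraries with the lowest *ND4* shares were those of RES fetus 6 (12.3%), RES fetus 70 (12.9%), CON fetus 68 (13.7%), RES fetus 55 (14.4%) and RES fetus 33 (15.6%). The other 9 lay between 19.1% and 27.5%. Every female fetus (RES fetuses 55 and 70 and CON fetus 68) was among the lowest, beside the male RES fetuses 6 and 33. The part of sex in these shares was not tested. The ratio of *ND4* to *ND4L*, which share a messenger, was alike in the tissues, with medians of 15.4 (10.7 to 20.7), 15.1 (11.2 to 23.6) and 16.9 (13.6 to 27.5) reads of *ND4* for each read of *ND4L* in the cerebrum, liver and muscle. The ratio of *ND1* to *ND2* had medians of 2.30, 2.57 and 2.03. Across the 14 libraries of a tissue, the 15 pairs of members without *ND6* had a median Pearson correlation of log2 CPM of 0.77 (cerebrum), 0.99 (liver) and 0.75 (muscle). The 6 pairs with *ND6* had medians of 0.27, 0.97 and 0.39. These correlations are descriptive, since the genes of a library share its scaling and depth.

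*ND6*, the light-strand gene, was the scarcest member by far. A cerebrum library held 53 to 251 of its counts (median 94), a liver library 69 to 2815 (median 268.5) and a muscle library 19 to 100 (median 57). For each *ND6* read, the other 6 genes had a median of 605.5 reads (cerebrum), 564 reads (liver) and 792 reads (muscle). *ND6* was the lowest member per kilobase in 14 of 14 libraries of each tissue. It lay below the next member by 10.5-fold in the cerebrum (against *ND5*), 15.8-fold in the liver (against *ND4L*) and 23.2-fold in muscle (against *ND4L*), taken as the mean of the log2 ratio.

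*ND6* made up 0.216% ± 0.189 of the ND counts in cerebrum libraries, 0.192% ± 0.076 in liver libraries and 0.126% ± 0.039 in muscle libraries (SD, n = 14). It was higher in the liver than in muscle in 10 of 14 fetuses (0.066 percentage points, exact permutation test, adjusted p = 0.013). It was lower in muscle than in the cerebrum in 10 of 14 fetuses (difference -0.090, exact permutation test, adjusted p = 0.023), and without CON fetus 23 this difference was -0.039 points (adjusted p = 0.046). Liver and cerebrum gave a difference of -0.024 points (adjusted p = 0.68), which became 0.0086 points without CON fetus 23. As a log2 ratio to the other 6 genes, this comparison gave 0.042 (exact permutation test, adjusted p = 0.85). As a log2 ratio of *ND6* to *ND5* it gave -0.51 and passed (exact permutation test, adjusted over the tissue pairs alone, p = 0.030). The *ND5* share was itself 2.95 points higher in the liver, so that this ratio does not measure *ND6* alone. In the cerebrum, CON fetus 23 had an *ND6* share of 0.840% (Wilson 95% interval 0.743% to 0.950%), and RES fetus 1 had 0.0497% (0.0418% to 0.0590%), with 129 counts of 259638. The other 12 cerebrum libraries lay between 0.0964% and 0.275%. In the liver, CON fetus 23 was again the highest, at 0.388%, followed by RES fetus 70 at 0.315%. In muscle, CON fetus 23 had 0.0936%, below the median of 0.126%. The intervals cover counting error only.

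**Figure D4:**
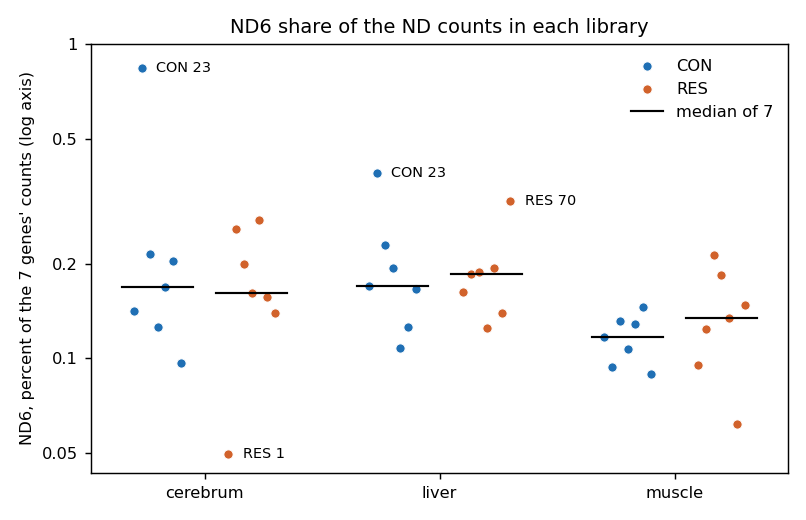
*ND6* counts as percent of the counts of the 7 ND genes (log axis) in each library by tissue and diet, with a bar at the median of 7. CON fetus 23 (0.840%) and RES fetus 1 (0.0497%) were the extremes of the cerebrum, and CON and RES overlapped in each tissue.

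Maternal diet did not separate the *ND6* share. The CON and RES medians were 0.169% and 0.161% for cerebrum libraries, 0.170% and 0.185% for liver libraries and 0.117% and 0.134% for muscle libraries, and the groups overlapped throughout. The differences of means were -0.079, -0.010 and 0.021 percentage points (exact permutation test, two-sided over 3432 splits, p = 0.70, 0.81 and 0.33). Without CON fetus 23, the differences for cerebrum and liver libraries turned to 0.019 and 0.022 points. None of the 21 shares (7 genes in 3 tissues) passed the adjustment, and the lowest adjusted p was 0.867.

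Between tissues, each ND gene was highest in the liver. The lowest, median and highest values of *ND1* were 1149, 3058 and 12911 CPM over the cerebrum libraries, 2621, 8274 and 242280 CPM over the liver libraries and 1074, 1489 and 2519 CPM over the muscle libraries. For *ND5* they were 325, 448 and 2310 CPM (cerebrum), 624.5, 3217 and 76966 CPM (liver) and 332, 536 and 844 CPM (muscle). For *ND6* they were 6.44, 13.4 and 54.02 CPM (cerebrum), 12.7, 43.8 and 1167 CPM (liver) and 2.65, 6.56 and 11.1 CPM (muscle). The liver overlapped the cerebrum for every member, and it overlapped muscle for *ND2*, *ND4L* and *ND5* but not for *ND1*, *ND3*, *ND4* and *ND6*.

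All 7 members were higher in the liver than in the cerebrum in edgeR's quasi-likelihood test over all 42 libraries (adjusted p under 0.05), where 38.5% of 15972 genes were higher, 45.2% lower and 83.6% called in all. The log2 differences ran from 2.52 ± 0.49 (SE) for *ND2* to 3.73 ± 0.53 for *ND5*, beside a median of -0.17 over all genes. All 7 were also higher in the liver than in muscle, where 36.6% of genes were higher, 45.5% lower and 82% called. These differences ran from 3.48 ± 0.52 for *ND2* to 4.32 ± 0.52 for *ND6*, with adjusted p = 5.99e-10 for *ND6*. With the fetus as a block, the differences were smaller, from 1.88 to 3.02 against the cerebrum and from 2.64 to 3.50 against muscle. Without RES fetus 1 they ran from 2.03 to 3.29 and from 2.85 to 3.69. The 7 were called in both comparisons under every alternative run.

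Muscle and cerebrum differed less. The same test called 2 members lower in muscle, where 35.9% of genes were lower, 32.2% higher and 68.1% called. *ND6* differed by -1.32 ± 0.47 (edgeR, adjusted p = 0.013) and *ND1* by -1.13 ± 0.48 (adjusted p = 0.037). *ND2* gave -0.96 ± 0.46 (adjusted p = 0.059), and with the animal as a block it gave -0.76 and passed (adjusted p = 0.048). *ND3* (-0.60), *ND4L* (-0.28), *ND4* (-0.20) and *ND5* (0.02) did not pass. The number called rose to 3, with *ND2* added, in DESeq2's Wald test (-1.01, adjusted p = 0.029) and in edgeR without RES fetus 1 (-0.82, adjusted p = 0.032). It fell to 1 through the loss of *ND1* with male fetuses only (-1.07, adjusted p = 0.095) and without any 1 of CON fetus 2 and RES fetuses 6, 25, 33, 55 and 70, and through the loss of *ND6* (-0.996) without CON fetus 23.

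The tissue difference depends on the scale. Summed over the 7 genes, log2 CPM was 12.98 ± 0.69 over the cerebrum libraries, 15.13 ± 1.94 over the liver libraries and 12.34 ± 0.28 over the muscle libraries (SD, n = 14). The liver was above the cerebrum in 14 of 14 fetuses by 2.15 on average and above muscle in 14 of 14 by 2.79, and muscle was below the cerebrum in 14 of 14 (difference -0.64). As log2 of the percent of all counts, the same differences were 1.04, 1.67 and -0.63. On that scale the liver was above the cerebrum in only 10 of 14 fetuses, the exceptions being CON fetuses 46, 69 and 73 and RES fetus 70. It was above muscle in 13 of 14, and muscle was below the cerebrum in 13 of 14, the exception being CON fetus 23. The CPM values are larger because the scaling counts most genes as unchanged, so that RES fetus 1, with a TMM factor of 0.189 in the liver, reached a summed level of 717928 CPM at 13.6% of its counts. Without RES fetus 1 and CON fetus 2, the differences in log2 CPM were 1.82, 2.28 and -0.46.

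No gene passed the adjustment for diet in edgeR's test in the liver (0% of 13527 genes), where 24.1% had an unadjusted p under 0.05 and DESeq2's Wald test called 78 genes, none of them an ND gene. In the liver the ND genes had higher median levels in RES. *ND1* had 2621 CPM as its lowest, 4222 as its median and 53513 as its highest value in CON, and 3195, 12164 and 242280 in RES. *ND5* had 624.5, 1069 and 17153 CPM in CON and 801, 4674 and 76966 in RES. *ND6* had 12.7, 22.2 and 285 CPM in CON and 31.5, 71.3 and 1167 in RES. The diets overlapped for every member, with RES fetus 1 highest in RES and CON fetus 2 highest in CON for *ND1*.

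The log2 differences (RES minus CON) in the liver were 1.96 ± 0.87 (SE) for *ND1*, 1.95 ± 0.84 for *ND2*, 1.88 ± 0.85 for *ND3*, 1.72 ± 0.82 for *ND4*, 1.61 ± 0.83 for *ND4L*, 2.01 ± 0.90 for *ND5* and 1.74 ± 0.81 for *ND6*. Unadjusted p was under 0.05 for 5 of 7 members, beside 24.1% of all genes, and the edgeR adjusted p ran from 0.19 (*ND2*) to 0.23 (*ND4L*). The size rests largely on RES fetus 1. Without it the 7 differences lay between 0.47 and 0.85, with a lowest unadjusted p of 0.26, and without CON fetus 2 they lay between 2.31 and 2.87, with a lowest adjusted p of 0.064. For the sum of the 7 genes, log2 CPM was 14.39 ± 1.57 in CON and 15.87 ± 2.09 in RES (SD, n = 7), a difference of 1.48 that was 0.88 without RES fetus 1 and 1.38 without both fetuses. Of the 4 liver libraries with the fewest genes with a count, 3 were RES, and the part of this in the diet difference was not tested.

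In the cerebrum no gene passed the adjustment (0% of 15151 genes), 2.55% had an unadjusted p under 0.05, and DESeq2's Wald test called 0 genes. *ND5* had 325, 458 and 587 CPM (lowest, median, highest) in CON and 339, 437 and 2310 in RES, so that the diets overlapped. RES fetus 1 and RES fetus 25 (808 CPM), the cerebrum libraries highest for hepatocyte and red cell markers, were above CON. The differences were 0.71 ± 0.46 for *ND1*, 0.58 ± 0.41 for *ND2*, 0.56 ± 0.38 for *ND3*, 0.60 ± 0.42 for *ND4*, 0.39 ± 0.37 for *ND4L*, 0.76 ± 0.38 for *ND5* and -0.23 ± 0.43 for *ND6*. None had an unadjusted p under 0.05, and the edgeR adjusted p was 0.999 for each. Without RES fetus 1 they lay between -0.23 and 0.15, and without CON fetus 23 between 0.35 and 0.86, with *ND6* turned to 0.35.

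In muscle no gene passed the adjustment either (0% of 14947 genes), while 9.9% had an unadjusted p under 0.05 and DESeq2's Wald test called 14 genes, none of them an ND gene. *ND4L* had 67.8, 101 and 124 CPM in CON and 51.5, 69.2 and 114 CPM in RES, with most RES libraries low and RES fetus 1 near the top of CON. Its difference was -0.39 ± 0.17 (unadjusted p = 0.034, edgeR adjusted p = 0.49), and it was the only member with an unadjusted p under 0.05. The other members lay between -0.14 ± 0.11 (*ND4*) and 0.14 ± 0.24 (*ND6*). Without RES fetus 1, *ND4L* was at -0.55 (unadjusted p = 0.0015) and *ND4* at -0.26 (unadjusted p = 0.0081), both with an edgeR adjusted p of 0.69. Without CON fetus 73, the highest CON library for *ND1*, *ND4* and *ND4L*, the difference of *ND4L* was -0.30 (unadjusted p = 0.078). The sum of the 7 genes differed by -0.12 with all fetuses and by -0.24 without RES fetus 1.

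**Figure D5:**
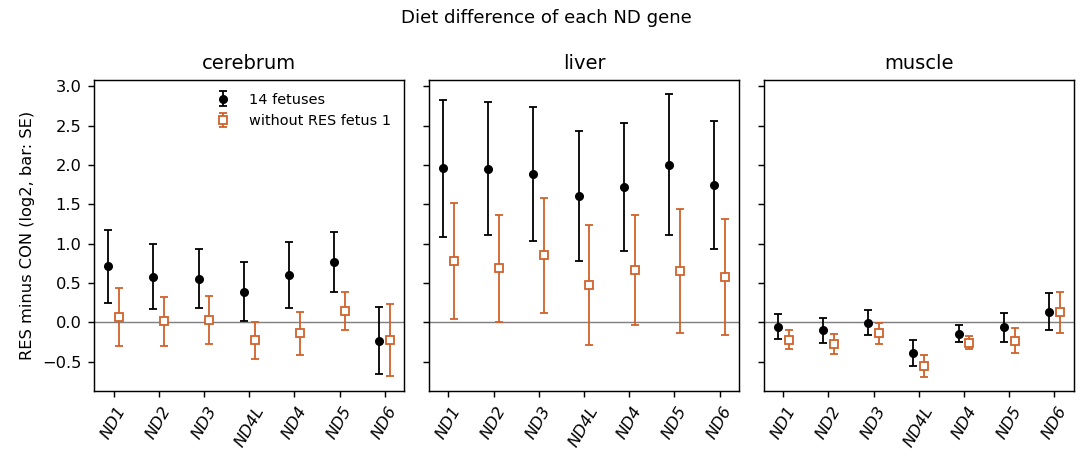
Diet difference of each ND gene (log2, RES minus CON, bars of 1 SE) from edgeR in each tissue, with all 14 fetuses (filled circles) and without RES fetus 1 (open squares). In the liver the differences lay between 1.61 and 2.01 with all fetuses and between 0.47 and 0.85 without RES fetus 1.

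The difference between tissues in the diet response was tested itself. No gene passed (0% of 15972 genes, edgeR), with 897 at an unadjusted p under 0.05 and 2 called by DESeq2's likelihood ratio test. For the 7 members the edgeR p ran from 0.068 (*ND2*) to 0.144 (*ND4L*), with an adjusted p of 0.829 for each.

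The summed ND level differed more between fetuses in the liver, where the 4 highest libraries were those with the fewest genes with a count, than in the other tissues. The distance of a library's summed log2 CPM from the median of its tissue and diet averaged 0.37 for cerebrum, 1.33 for liver and 0.19 for muscle libraries. It was larger in the liver than in the cerebrum in 12 of 14 fetuses (difference 0.96) and larger than in muscle in 12 of 14 (difference 1.14), and these differences were 0.71 and 0.77 without RES fetus 1 and CON fetus 2. As log2 of the percent of all counts they were 0.58 and 0.80. The correlation of a fetus's level between tissues depended on 1 or 2 fetuses. Over 14 fetuses the summed level in the liver and the cerebrum had a Pearson r of 0.72 and a Spearman rho of 0.36, and r was 0.43 without RES fetus 1 and 0.20 without CON fetus 2 and RES fetus 1, the farthest from the median of the liver. Muscle and cerebrum had an r of 0.59 and a rho of 0.06, and r was 0.066 without RES fetus 1 and -0.41 without RES fetuses 1 and 52. Liver and muscle had an r of 0.34 and a rho of 0.02, and r was -0.17 without RES fetus 1 and -0.12 without CON fetus 2 and RES fetus 1. No p is given, since the sum runs over genes chosen with results known.

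The other 5 mitochondrial protein genes were compared in the same way. All 5 were higher in the liver than in the cerebrum (beside 38.5% of all genes) and in muscle (beside 36.6%), by 2.64 (*ATP6*) to 3.78 (*COX1*) and by 3.44 (*CYTB*) to 4.76 (*COX1*) on the log2 scale. In muscle against the cerebrum, *COX2* (-1.13, adjusted p = 0.028) and *ATP6* (-0.99, adjusted p = 0.046) were lower in edgeR's test. In that test *COX1* (-0.97, adjusted p = 0.087), *CYTB* (-0.06) and *COX3* (-0.01) did not pass. *COX1* passed in DESeq2's Wald test (-1.03, adjusted p = 0.026). *COX2* was short of the threshold with male fetuses only (-1.17, adjusted p = 0.056) and without CON fetus 2 or CON fetus 23. *ATP6* was short of it with the animal as a block (-0.78, adjusted p = 0.057), with male fetuses only (adjusted p = 0.11), with no filter, with no sex covariate and without any 1 of CON fetuses 2 and 23 and RES fetuses 6, 25, 33, 55 and 70. For diet in the liver the 5 gave 1.61 to 1.79, and none had an unadjusted p under 0.05.

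Nuclear genes supply the rest of complex I, and 18 of 37 listed subunits had a symbol here. The symbols come from tables that the study selected on these fetuses, so that this list is not independent evidence of a direction. Of the 18, 12 were higher and 3 lower in the liver than in the cerebrum, so that the number called was near the 83.6% of all genes, of which 38.5% were higher and 45.2% lower. The median log2 difference was 0.84 beside 3.33 for the ND genes. *NDUFS7* (2.47) and *NDUFV1* (1.92), parts of the arm that takes electrons from NADH, rose most, and *NDUFB5* (-1.58) and *NDUFC2* (-1.14), accessory subunits of the membrane arm, fell most. Against muscle, 15 were higher in the liver and 1 lower (*NDUFB5*, -0.49), beside 36.6% and 45.5% of all genes, with a median of 1.17 beside 3.71 for the ND genes, and *NDUFV1* (2.06) and *NDUFS8* (1.92) had the largest differences. In muscle against the cerebrum, 2 were higher (*NDUFA9* and *NDUFS7*, both 0.61) and 8 lower, led by *NDUFB8* (-1.23) and *NDUFB5* (-1.09), with a median of -0.28. Of all genes, 32.2% were higher and 35.9% lower.

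For diet none of the 18 nuclear subunits passed in edgeR's test in any tissue. Their median difference was 0.12 in the liver beside 1.88 for the ND genes, -0.14 in the cerebrum beside 0.58, and 0.17 in muscle beside -0.06, and the medians over all genes were -0.03, -0.03 and -0.01. In muscle 18 of 18 subunits had positive values, from 0.05 to 0.34, beside 48.1% of all genes. The unadjusted p in edgeR was under 0.05 for 4 of 18 in muscle, beside 9.9% of all genes. In the liver it was under 0.05 for 4 of 18, beside 24.1%. In the liver the values ran from -0.86 (*NDUFV3*, edgeR adjusted p = 0.18, and 0.045 in DESeq2's Wald test) to 0.83 (*NDUFS8*, adjusted p = 0.18).

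Of 17 listed assembly factors 3 had a symbol. *NDUFAF3* was higher in the liver than in the cerebrum (2.27) and muscle (2.50), and *NDUFAF5* was higher by 0.42 and 0.81. *TIMMDC1* did not pass in edgeR's main test (-0.14 and 0.10). Against the cerebrum, *NDUFAF5* was short of the threshold with the animal as a block (0.36, adjusted p = 0.058). It was also short with DESeq2 size factors (0.40, adjusted p = 0.053) and with the stricter filter (0.34, adjusted p = 0.086). *TIMMDC1* passed against the cerebrum with the stricter filter (-0.23, edgeR adjusted p = 0.049). Of 28 listed genes of mitochondrial transcription and RNA processing 10 had a symbol. In the liver against the cerebrum 6 were higher and 2 lower, beside 38.5% and 45.2% of all genes. *HSD17B10*, a subunit of the enzyme that cuts transfer RNAs out of the mitochondrial precursors, was higher by 2.16, *TFB1M*, a methyltransferase of the mitochondrial ribosomal RNA, was higher by 1.28, and *TEFM*, the elongation factor of mitochondrial transcription, was lower (-0.65). Against muscle 9 were higher in the liver and 0 lower, beside 36.6% and 45.5% of all genes, among them *HSD17B10* (2.30) and *PPARGC1A*, a coactivator of mitochondrial biogenesis (1.57). In muscle against the cerebrum 1 was higher (*TFB1M*, 0.40) and 4 were lower, led by *TEFM* (-1.20) and *PPARGC1A* (-1.08), beside 32.2% and 35.9% of all genes. None passed for diet, and in the liver *TEFM* (-0.58) and *NRF1* (-0.60) were lowest and *SUPV3L1*, a helicase of mitochondrial RNA decay, was highest (0.66).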

How the data were processed

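The authors mapped 50-bp paired-end reads of strand-specific libraries with STAR 2.7.3a and deposited raw counts per Ensembl gene for 42 libraries, without normalization. Members and gene lists were chosen with earlier results of these data known. Counts were fitted with edgeR 4.0.16 in R 4.3.3 (TMM factors, quasi-likelihood test, Benjamini-Hochberg adjustment), within each tissue for diet with sex as covariate, and over all libraries for tissues with sex and diet. The filter dropped a gene where 80% or more of the libraries fitted had under 1 CPM. Shares were tested by exact permutation, without a sex covariate, in Python 3.11.15 with scipy 1.17.1, and no p is given for sums over the members. DESeq2 1.42.0, DESeq2 size factors, other filters, no sex covariate, male fetuses only, scaling without the mitochondrial genes, an animal block and leaving out each fetus were alternatives. Tissues with the same number come from the same fetus. The deviations of all genes correlated by a median of 0.03 to 0.10 between tissues of a fetus. Tissues of different fetuses were not correlated, so that these values do not test the pairing. The steps were tested on simulated data. Named genes were the 7 members, the other mitochondrial protein genes, and of each nuclear list the genes with the largest differences in each direction. Symbols came from the study's supplementary tables and cover 5131 genes. *ATP8*, the mitochondrial ribosomal and transfer RNAs and 19 nuclear subunits are not analysed here by name. No sequence is printed. Library depth is given with the results. A gene that the rule for similar patterns named is not reported here.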

Additional observations from a re-analysis of the deposited data

Results flagged for a closer look

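A library was singled out when the gap to its nearest neighbour was large for the range of its group of 7 (Dixon's test at the 95% level). Of 60 groups tested, 6 held such a library. The groups are 10 overlapping measures of the same 42 libraries, so that this count cannot be set against a rate expected by chance. In the cerebrum of RES, the library of fetus 1 was highest for the summed ND level, at 14.99 log2 CPM, and for *ND4*, at 12.83 log2 CPM. In the muscle of RES, the library of fetus 1 was highest for *ND4*, at 10.92 log2 CPM. In the cerebrum of CON, the library of fetus 23 was highest for the *ND6* share of the ND counts, at 0.840%, and lowest for the ND share of the 12 mitochondrial genes, at 11.2%. In the liver of RES, the library of fetus 70 was highest for the *ND6* share, at 0.315%. Liver CON fetus 23, at 0.388%, fell just short in this test, with a ratio of gap to range of 0.567 against a critical value of 0.568. The part of the marker genes of other cell types in the values of cerebrum RES fetus 1 was not tested.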

How the results depend on the processing

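The liver stood above the cerebrum and muscle for all 7 ND genes under every alternative run, and no ND gene passed for diet under any. All of these runs scaled the counts by TMM or by DESeq2 size factors. The percent of all counts was taken for the sum only. On that scale the liver was above the cerebrum in 10 of 14 fetuses and above muscle in 13 of 14. DESeq2's Wald test called 78 genes for diet in the liver and 14 in muscle, and its likelihood ratio test called 2 for diet by tissue, against 0 in edgeR. With the replicate block, where the 3 tissues of a fetus are paired, 13437, 10888 and 13157 genes were called for liver against cerebrum, muscle against cerebrum and liver against muscle, *ND2* in muscle against cerebrum passed (-0.76), *COX3* and *CYTB* turned positive (0.20 and 0.10), and the diet difference of *ND6* in muscle minus that in the cerebrum turned to -0.18. Between liver and cerebrum, *ND6* gave 0.042 as a log2 ratio to the other 6 genes. As a log2 ratio to *ND5*, whose own share was higher in the liver, it gave -0.51, past the threshold. The correlation of liver and cerebrum was 0.52 with percent of counts. Without RES fetus 1 and CON fetus 2, a setting chosen after seeing the data, it was 0.20, that of liver and muscle was -0.12 and the *ND6* share of the liver minus that of the cerebrum was -0.0401 points. *ND5* in muscle against cerebrum turned to -0.0321 with DESeq2 and with its size factors, -0.0267 with the stricter filter, -0.0584 without the sex covariate and -0.13 in males. In males the diet differences in muscle turned to 0.0432 for *ND1*, 0.0022 for *ND2*, 0.0739 for *ND3* and 0.0037 for *ND5*. The cause of these changes was not tested.

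Leaving out each fetus in turn moved the *ND6* share difference between diets from -0.105 to 0.0188 in the cerebrum and from -0.0315 to 0.0217 in the liver, and that between liver and cerebrum from -0.0397 to 0.0086, where the sign changed without CON fetus 23, and for diet in the liver also without RES fetus 33. The correlations ranged from 0.43 to 0.76 for liver and cerebrum, -0.17 to 0.46 for liver and muscle and 0.0664 to 0.65 for muscle and cerebrum. The log2 differences that changed sign, all short of the threshold, ranged for diet in the cerebrum from -0.14 to 0.76 (*ND4*), -0.23 to 0.54 (*ND4L*) and -0.38 to 0.35 (*ND6*), and for diet in muscle from -0.22 to 0.0433 (*ND1*), -0.27 to 0.0022 (*ND2*), -0.14 to 0.0741 (*ND3*), -0.23 to 0.0348 (*ND5*) and -0.0087 to 0.34 (*ND6*). For muscle against cerebrum they ranged from -0.32 to 0.0198 (*ND4*), -0.0737 to 0.18 (*ND5*), -0.0898 to 0.32 (*COX3*) and -0.18 to 0.15 (*CYTB*). *TIMMDC1* in liver against cerebrum ranged from -0.18 to 0.0269, the *ND4L* share in liver against muscle from -0.000101 to 0.0988, and the *ND6* diet difference in muscle minus that in the cerebrum from -0.33 to 0.44.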

Other observations

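In the cerebrum, named genes whose log2 CPM followed the summed ND level closely over 14 libraries included *C3* (Pearson r = 0.96), *P3H1* (0.94), *MSANTD2* (0.93) and *MOV10* (0.92), among 4615 named genes. Without RES fetus 1 and CON fetus 2 the r of these 4 lay between 0.64 and 0.86. In muscle the closest were *HINT2* (0.76), *NRADD* (0.74), *FABP3* (0.73), *ARRB2* (0.73) and *IMP4* (0.73), among 4668, and without these fetuses their r lay between 0.50 and 0.69. In the liver they were *GNL2*, *NUCKS1*, *RPS6*, *THYN1* and *GTF2F1*, each at 0.99, among 4483, and without these fetuses between 0.97 and 0.99. The liver genes share the library's scaling factor with the ND genes. *RPS6* had between 3715 and 6546 counts over the liver libraries, whereas *ND1* had between 15431 and 584568. These values are descriptive, over libraries that share depth and scaling, and only genes with a symbol in the study's tables could be named.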
